A study of Homo sapiens with 12 samples.

Results

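Acetylated H2A.Z (H2A.Zac) was compared with total H2A.Z in the control cells of a chromatin immunoprecipitation sequencing (ChIP-seq) study. The members were 2 of the 12 libraries of the series, chosen by their labels as the H2A.Z and the H2A.Zac immunoprecipitation of the control. On chromosomes 1 to 22 and X, 26099 of 182213 deposited H2A.Z regions and 40081 of 81287 deposited H2A.Zac regions had a q of 0.05 or less, and these were used unless stated. A region is a stretch called as enriched by the peak caller, and its summit is the position of its highest pileup. There was 1 library on each side, so no test was possible and all comparisons are between libraries.

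The cells were Huh7, an established human hepatocellular carcinoma line. In both groups, 3 FLAG tags followed by a blasticidin resistance cassette had been inserted by Cas9 at the stop codon of the endogenous VPS72 gene, and colonies that survived blasticidin were expanded. The control had been infected for 24 h with lenti-HA virus, which the series text calls an empty vector, and its genotype label is wild type with the knock-in. The other group had been infected for the same time with lenti-VPS72-FLAG virus and so carried VPS72 on top of the tagged endogenous gene. Whether the libraries came from 1 colony or several was not stated in the labels. The FLAG, H3K27ac and H3K4me1 libraries of the control were used as neighbours of the 2 H2A.Z marks, and the overexpression libraries as a second set of libraries for the same measures.

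H2A.Z is a variant of histone H2A that replaces it in the nucleosomes beside active and poised promoters and at enhancers. In mammalian cells the SRCAP complex, of which VPS72 (also called YL1) is a subunit that binds H2A.Z, exchanges it into chromatin. The TIP60 complex, which also holds VPS72, acetylates lysines of the H2A.Z tail, and the acetylated form is found mainly where transcription is active. H3K27ac marks active promoters and enhancers, and H3K4me1 is best known from enhancers.

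Recovered from the deposited values, the depth was about 17.9 M reads for H2A.Z and 21.7 M for H2A.Zac, if the genome average was taken over 2.7 Gb. H2A.Z regions had a median of 10.0 reads at the summit, with a lowest value of 8 reads, and H2A.Zac regions had a median of 19.0 with a lowest value of 9. The highest deposited fold over the local background was 11.7 for H2A.Z and 34.6 for H2A.Zac. The H2A.Z regions covered 0.642% of the genome and the H2A.Zac regions 1.34%. The antibodies thus gave libraries of unlike enrichment, and a lack of one mark cannot be told apart from enrichment below what its library could call.

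Most H2A.Z regions carried acetylated H2A.Z. An H2A.Zac region overlapped 18252 of 26099 H2A.Z regions, or 69.9% (Wilson 95% interval 69.4 to 70.5). All intervals given here cover counting error only. Another 1189 regions (4.56%) met only an H2A.Zac peak whose q was above 0.05, which brings the share with any deposited H2A.Zac peak to 74.5%. The remaining 6658 regions (25.5%) met no deposited H2A.Zac peak. The share rests on how the regions were listed. With all deposited peaks of both lists it was 23.9%, with a q of 1e-05 or less it was 95.4%, and with summits at most 250 bp apart it was 43.6%.

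The stronger and the wider an H2A.Z region was, the more often it was acetylated. With the H2A.Z regions in 5 equal classes of rising −log10 p, the share with H2A.Zac was 41.8%, 51.8%, 69.7%, 89.0% and 97.4%. In the weakest class the median H2A.Z summit held 9 reads, and in the strongest 15. In 5 equal classes of width the rise was steeper, from 27.9% among regions of 211 to 324 bp to 98.0% among regions of 1108 bp or more. Of the 7847 regions without H2A.Zac, 3039 were in the weakest class, 2518 in the next and only 135 in the strongest. The overexpression libraries had the same order, with 63.0% in the weakest class and 96.8% in the strongest.

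**Figure D1:**
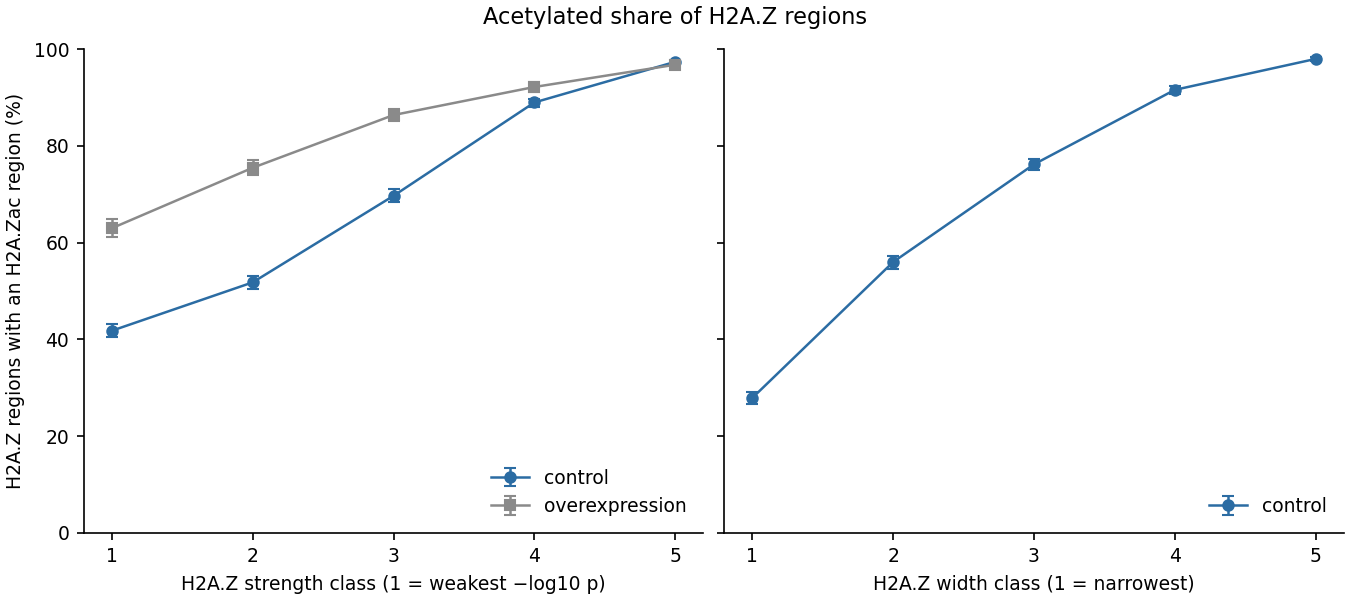
Share of H2A.Z regions that overlap an H2A.Zac region (%, y axis) by class of H2A.Z strength (left, control and overexpression libraries) and of H2A.Z width (right, control), with 5 equal classes on each x axis and Wilson 95% intervals as bars. In the control the share rises from 41.8% to 97.4% with strength and from 27.9% to 98.0% with width.

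In the other direction the share was lower at the q limit used, and higher with all deposited peaks, at 45.5% against the 23.9% given above. At the q limit an H2A.Z region overlapped 16812 of 40081 H2A.Zac regions (41.9%), an H2A.Z peak above the q limit 12203 (30.4%), and no deposited H2A.Z peak 11066 (27.6%), so that 72.4% met a deposited H2A.Z peak of any q. This share also rose with strength, through 9.27%, 18.7%, 34.4%, 61.7% and 85.7% over 5 equal classes of H2A.Zac −log10 p. The H2A.Zac regions without an H2A.Z region were thus mostly among the weaker ones. Of the 8016 strongest, 1150 had no H2A.Z region at the q limit, but only 88 met no deposited H2A.Z peak. At a q of 1e-05 or less in both lists, 13.8% of H2A.Zac regions met an H2A.Z region. With every list cut to its 20108 strongest regions, both directions came close together, at 65.7% of H2A.Z regions and 60.4% of H2A.Zac regions.

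Acetylated H2A.Z regions were wider. The median width was 787 bp (quartiles 514 to 1165) for 18252 regions with H2A.Zac and 331 bp (quartiles 264 to 482) for 7847 without. Their median folds over the local background were closer, at 4.17 and 3.73, and their summits held 11 and 9 reads. The difference in width was also seen between regions of like strength. In the weakest class the median was 582 bp with H2A.Zac and 315 bp without, and in the strongest 1131 and 546 bp. H2A.Zac regions were ordered in the same way by H2A.Z, with medians of 1279 bp for those with an H2A.Z region, 844 bp for those with a peak above the limit and 495 bp for those with no deposited H2A.Z peak.

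At shared places the called H2A.Zac region was mostly the wider one. In both lists called widths were larger in the strongest class than in the weakest, and the H2A.Zac library was the more enriched. The part of enrichment in this difference was not tested. Each H2A.Zac region was compared with the strongest H2A.Z region overlapping it. H2A.Zac was wider in 77.7% of 16812 places, with a median width ratio of 1.37 (quartiles 1.03 to 2.15). The H2A.Z region lay wholly inside the H2A.Zac region at 52.7% of places, and the reverse held at 9.86%. The H2A.Zac region met 1 H2A.Z region at 15256 places, 2 at 1480, 3 at 71 and 4 at 5.

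The 1480 H2A.Zac regions that met 2 H2A.Z regions had a median width of 1845 bp, against 1218 bp with 1 H2A.Z region. Their H2A.Z summits were a median of 807 bp apart (quartiles 622 to 1086), and the gap between both H2A.Z regions was 239 bp. The H2A.Zac summit lay between both H2A.Z summits in 65.8% of them, but in the gap in only 8.58%, and was 111 bp from the nearer H2A.Z summit. It thus mostly lay near an H2A.Z summit and not midway. H3K27ac overlapped 85.3% of these double places and 56.4% of the places with 1 H2A.Z region. The greater width of the double places moved with this share, and its part in it was not tested.

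Summits of both marks lay close together. The median offset between the H2A.Zac summit and that of the strongest H2A.Z region overlapping it was 146 bp (quartiles 57.0 to 365). Both summits were at most 50 bp apart at 22.7% of places, at most 250 bp at 64.9% and at most 500 bp at 84.0%. The offset grew with the width of the H2A.Zac region, from 88.0 bp for regions under 600 bp to 336 bp for those of 2000 bp and over. Summits over 500 bp apart made up 5.54% of the narrowest and 39.4% of these widest places. In the overexpression libraries the median offset was 125 bp.

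Each over its own set of places, H3K27ac summits lay about as near to H2A.Zac as H2A.Z summits did, but with another spread. At places with all 3 marks, given below, the H3K27ac summits were the nearer ones. The median H2A.Zac to H3K27ac offset was 142 bp over 19987 places, and the median H2A.Z to H3K27ac offset was 234 bp over 10824. Counts of H2A.Zac to H3K27ac offsets in bins of 50 bp fell from 5126 at 0 to 50 bp to 582 at 350 to 400 bp, then rose to 681 at 500 to 550 bp. This second rise came back in the overexpression libraries, from a low of 441 places at 250 to 300 bp to 521 at 500 to 550 bp. H2A.Zac to H2A.Z offsets fell from 3747 to 622 and 460 in the same 3 bins. H3K4me1 summits were farther off, with a median of 450.0 bp from those of H2A.Zac and 399 bp from those of H2A.Z.

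**Figure D2:**
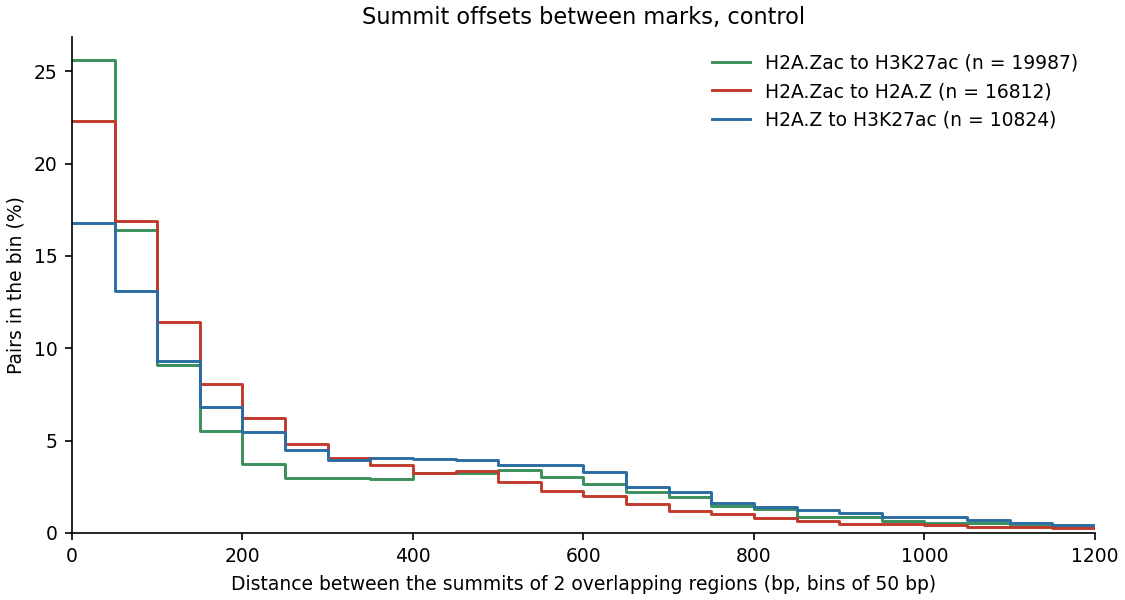
Distance between the summits of overlapping regions of 2 marks in the control (bp, x axis, bins of 50 bp) against the percentage of pairs in the bin (y axis) for H2A.Zac to H3K27ac, H2A.Zac to H2A.Z and H2A.Z to H3K27ac. All 3 peak at 0 to 50 bp, and the curve of H2A.Zac to H3K27ac has a low at 350 to 400 bp and a second rise at 500 to 550 bp.

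Where all 3 summits lay apart, that of H2A.Zac was most often in the middle, in a pairing built on H2A.Zac. Each place was an H2A.Zac region with the strongest H2A.Z and the strongest H3K27ac region overlapping it, which need not overlap each other. This pairing favours H2A.Zac in the middle and a longer H2A.Z to H3K27ac distance, so no layout is read from the order. There were 9944 such places. The median distances were 119 bp between H2A.Zac and H3K27ac, 171 bp between H2A.Zac and H2A.Z and 268 bp between H2A.Z and H3K27ac. All 3 summits were over 100 bp apart at 2600 of these places. There H2A.Zac was in the middle at 46.9%, H3K27ac at 27.4% and H2A.Z at 25.7%. The overexpression libraries gave 48.8%, 25.4% and 25.8% over 1591 places. Where H2A.Zac and H3K27ac were both over 250 bp from the H2A.Z summit, they were on the same side of it at 2731 of 2908 places (93.9%). For the other marks around H3K27ac this was 2474 of 2676 places (92.5%), and around H2A.Zac 1299 of 1657 (78.4%). This distance filter favours the same side for each mark, because summits on opposite sides must span a longer stretch to pass it. No expected share was computed, so no layout is read from these shares either.

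H3K27ac split the acetylated from the other H2A.Z regions. Of all 26099 H2A.Z regions, 41.5% overlapped an H3K27ac region. This was the case for 10680 of 18252 regions with H2A.Zac, or 58.5% (57.8 to 59.2), and for 144 of 7847 without, or 1.84% (1.56 to 2.16). Counting any deposited H3K27ac peak raised the shares to 66.9% and 5.03%. Pairing marks by summits at most 250 bp apart in place of overlap narrowed the gap, to 35.7% and 11%. With equal list lengths the shares were 60.4% and 5.92%.

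The split was there at each strength of H2A.Z. From the weakest to the strongest of the 5 classes, acetylated regions had H3K27ac at 53.3%, 55.5%, 56.5%, 59.2% and 63.1%. Regions without H2A.Zac had it at 1.38%, 2.26%, 1.65%, 2.96% and 1.48%. The intervals were separate in 5 of 5 classes, and also in 5 of 5 classes of H2A.Z fold and of H2A.Z width. The overexpression libraries gave 59.3% and 5.23% over all H2A.Z regions.

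H3K27ac was also far away from H2A.Z regions without an H2A.Zac region. The nearest H3K27ac summit lay a median of 645 bp from H2A.Z summits with H2A.Zac and 76018 bp from those without. Within 1000 bp of such a summit were 58.4% and 2.18% of them, and within 10000 bp 70.0% and 13.4%. Regions whose H2A.Zac peak was above the limit lay between, with a median of 42149 bp. Seen from H3K27ac, 72.2% of its 27379 regions overlapped H2A.Zac and 36.8% overlapped H2A.Z, and only 45 regions (0.164%) held an H2A.Z region but no deposited H2A.Zac peak.

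For H2A.Zac regions of like strength the order by H2A.Z was the reverse. Over all H2A.Zac regions, of which 49.9% overlapped H3K27ac, the share was 59.1% for those with an H2A.Z region and 43.2% for those without. Within each class of H2A.Zac strength it was lower with H2A.Z. In the weakest class H3K27ac overlapped 11.8% of the regions with H2A.Z and 23% of those without. In the next 3 classes it overlapped 17.7% and 37.4%, 37.4% and 51.9%, and 60.0% and 71.4%, and in the strongest 81.4% and 87.7%.

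The higher share over all regions thus came with the larger part of strong H2A.Zac regions among those with H2A.Z. The reverse order within classes held in 5 of 5 classes, with separate intervals in each. The count was also 5 of 5 with classes of H2A.Zac fold, with classes of H2A.Zac width, with any deposited H3K27ac peak and in the overexpression libraries. All of these were chosen after the data were seen. Regions with H2A.Z were the wider ones in each class, with medians of 528 and 392 bp in the weakest and 1558 and 1405 bp in the strongest.

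**Figure D3:**
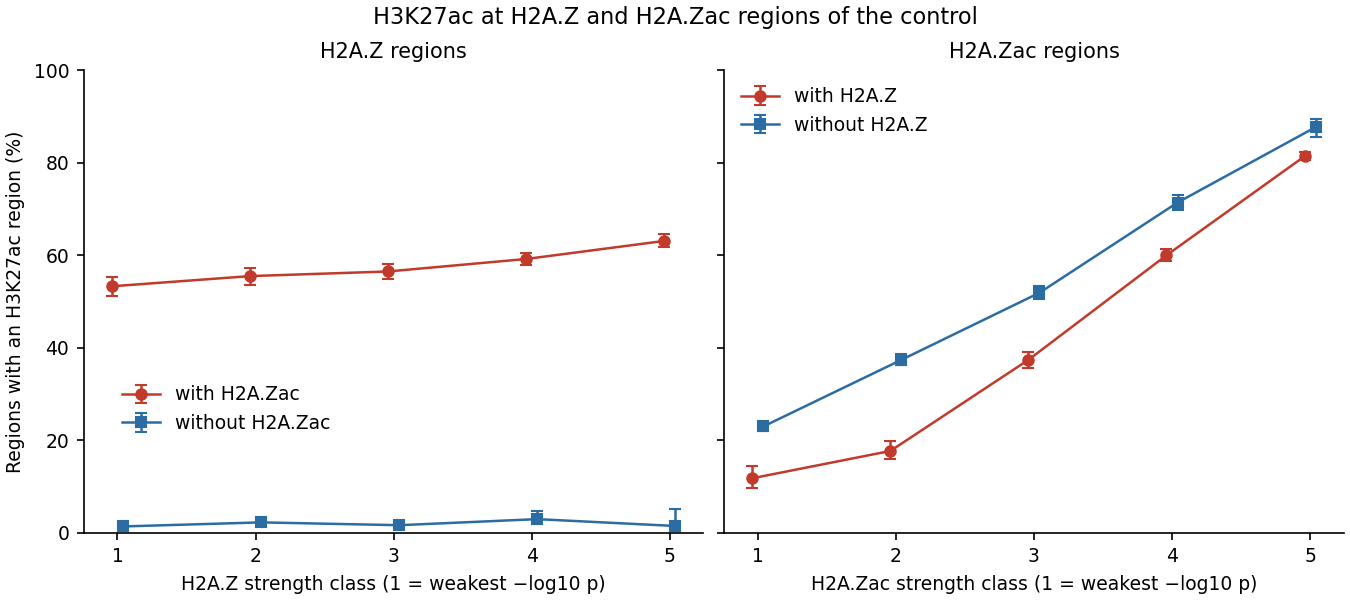
Share of regions with an H3K27ac region (%, y axis) in the control for H2A.Z regions with and without H2A.Zac (left) and H2A.Zac regions with and without H2A.Z (right), by 5 equal classes of their own strength (x axis), with Wilson 95% intervals. On the left 53.3% to 63.1% stand against 1.38% to 2.96%, and on the right the regions with H2A.Z are the lower ones in each class.

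At shared places the height of H2A.Zac over H2A.Z moved with H3K27ac. The median H2A.Zac fold was 8.78 (quartiles 5.96 to 12.2) and the median H2A.Z fold 4.29 (quartiles 3.75 to 5.07), and the ratio of both had a median of 1.96 (quartiles 1.38 to 2.62). Folds of 2 antibodies are not on one scale, so the level of this ratio has no meaning of its own and only its order between places is described. The ratio was 2.30 at 9944 places with H3K27ac, 1.76 at 1489 places with an H3K27ac peak above the limit, and 1.38 at 5379 places with no deposited H3K27ac peak.

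Both median folds were higher with H3K27ac. That of H2A.Zac was 10.4 with H3K27ac and 6.10 with no deposited H3K27ac peak, and that of H2A.Z was 4.42 and 4.17. The highest deposited fold was 34.6 for H2A.Zac and 11.7 for H2A.Z, so the sizes of these 2 differences are not on one scale either. The ratio had medians of 1.63, 1.36 and 1.16 in the overexpression libraries, in the same order but lower, and depth differed between both sets of libraries. At places with H3K4me1 the control ratio was 1.67, and at places without it 2.00.

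**Figure D4:**
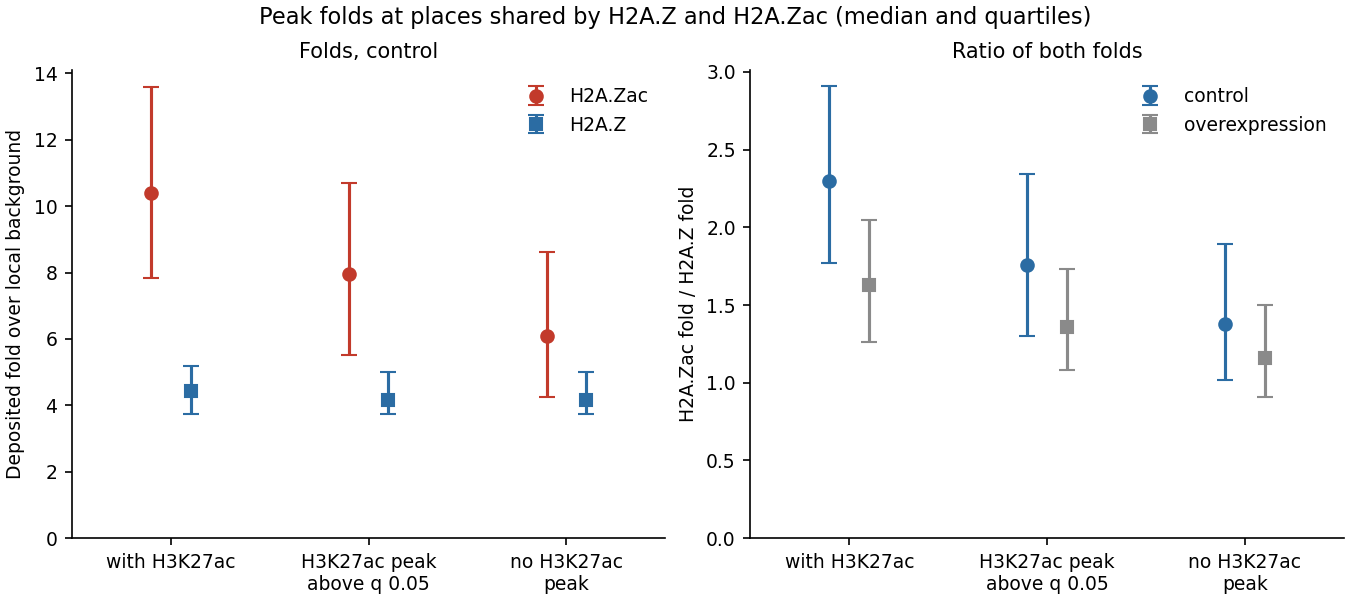
Left, deposited folds over the local background (y axis) of H2A.Zac and H2A.Z at shared places of the control, and right, their ratio in the control and overexpression libraries, by the state of H3K27ac (x axis). Points are medians and bars are quartiles. The H2A.Zac fold falls from 10.4 to 6.10 and the H2A.Z fold from 4.42 to 4.17.

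FLAG, which reports the tagged VPS72, was found more often at H2A.Z regions with acetylation, but this order was not kept in all classes of H2A.Z strength or width. A FLAG region overlapped 21.9% of all H2A.Z regions, 25.6% of those with H2A.Zac and 13.5% of those without. The FLAG library was the shallowest used, at about 4.38 M reads, yet had 68395 regions with as few as 4 reads at the summit. Within classes of H2A.Z strength the difference shrank. FLAG overlapped 15% and 10.6% of the weakest regions with and without H2A.Zac, 25.5% and 25.7% in the fourth class and 39.0% and 39.3% in the strongest, where the intervals overlapped. With any deposited FLAG peak the share was higher with H2A.Zac in 5 of 5 strength classes, with separate intervals in 4, and was 53.7% and 44.4% in the strongest, where they overlapped (52.3 to 55.0 and 36.3 to 52.9). In classes of H2A.Z width it was higher with H2A.Zac in only 3 of 5 and lower in 2, both at the q limit and with any deposited FLAG peak.

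Among H2A.Zac regions, by contrast, FLAG differed with H2A.Z in each class. It overlapped 17.5% of all H2A.Zac regions, 28.5% of those with H2A.Z and 9.57% of those without. In the weakest class the shares were 24.0% and 7.37%, and in the strongest 31.9% and 18.8%, with separate intervals in 5 of 5 classes. With any deposited FLAG peak this was again 5 of 5. Acetylated H2A.Z regions with no deposited H3K27ac peak, of which there were 6047, had FLAG at 30.6%, against 23% of those with H3K27ac.

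**Figure D5:**
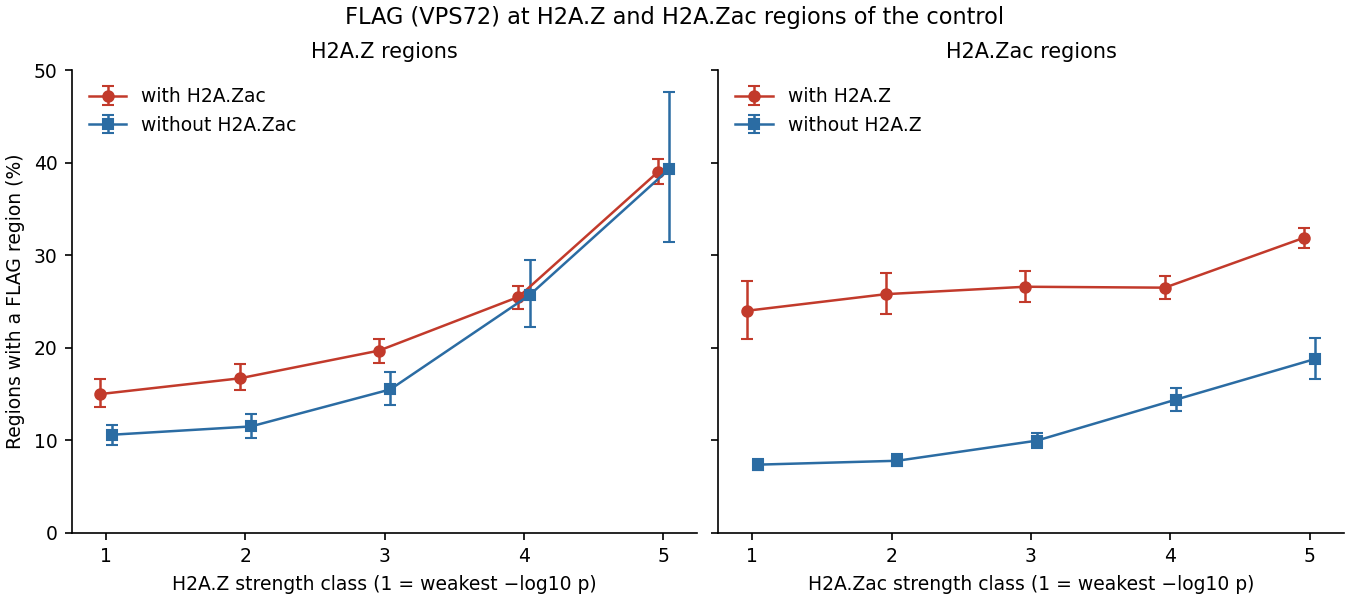
Share of regions with a FLAG region (%, y axis) in the control for H2A.Z regions with and without H2A.Zac (left) and H2A.Zac regions with and without H2A.Z (right), by 5 equal classes of their own strength (x axis), with Wilson 95% intervals. On the left both lines meet at 39.0% and 39.3% in the strongest class, and on the right they stay apart, at 31.9% and 18.8%.

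At the q limit used, H3K4me1 regions overlapped a minor part of the regions of both marks. The control H3K4me1 library had 20108 of 124449 deposited regions within this limit, on 0.486% of the genome. Its highest deposited fold was 11.7, against 42.4 for H3K27ac. Low shares are thus not shown to be a lack of H3K4me1. An H3K4me1 region overlapped 8.00% of H2A.Z regions, 9.75% of those with H2A.Zac and 3.94% of those without. This order was not kept in all classes of H2A.Z regions. The share was higher with H2A.Zac in 4 of 5 classes of strength and in 4 of 5 of width. With any deposited H3K4me1 peak it was higher in 3 of 5 classes of strength and lower in 3 of 5 of width. The 1189 H2A.Z regions whose H2A.Zac peak was above the limit had the highest share, 12.2%, and those with no deposited H2A.Zac peak the lowest, 2.46%. Among H2A.Zac regions 14.4% met H3K4me1, with 12.3% of those with H2A.Z and 15.9% of those without. How this order held depended on the classes. Within classes of H2A.Zac strength the share was lower with H2A.Z in 2 of 5 and higher in 3, with separate intervals in 0, and with any deposited H3K4me1 peak it was higher in 5 of 5. Within classes of H2A.Zac width it was lower with H2A.Z in 4 of 5, with separate intervals in 4. Among H2A.Zac regions with H3K27ac, H3K4me1 overlapped 11.3% of those with an H2A.Z region, 19.8% of those with a peak above the limit and 24.7% of those with no deposited H2A.Z peak. The H2A.Zac folds of these groups differed too, with medians of 10.4, 6.23 and 4.13, and the part of strength was not tested.

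H2A.Z regions with no deposited H2A.Zac peak seldom met an H2A.Z peak in the second set of libraries. A deposited H2A.Z peak of the overexpression library overlapped 80.9% of the H2A.Z regions with H2A.Zac, 32.6% of those with a peak above the limit and 9.55% of those with none. The gap was there at like strength too, with 67.3% and 7.28% in the weakest class and 95.4% and 45.9% in the strongest. An overexpression H2A.Zac peak overlapped 92.5% of the H2A.Z regions with H2A.Zac and 4.64% of those with none. For H2A.Zac regions, an overexpression H2A.Zac peak overlapped 93.1% of those with an H2A.Z region and 44.2% of those with no deposited H2A.Z peak. The overexpression H2A.Z list was shorter, with 57951 deposited regions on 0.796% of the genome, against 182213 on 2.29% in the control. The virus differed between both sets too. The part of list length and of virus in these shares was not tested.

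H2A.Z regions without an H2A.Zac region were spread unevenly over the genome. The share with H2A.Zac ran from 59.5% on chromosome 20 to 83.2% on chromosome 16. In the overexpression libraries the ends were other chromosomes, 76.6% on chromosome 18 and 91.1% on chromosome 17. Shares by chromosome or band were not taken at like strength. By cytogenetic stain it was 74.0% in unstained bands, 75.5%, 65.5%, 63.3% and 56.7% in bands of rising stain, and 39.2% in centromeric or variable bands. Centromeric or variable bands held 4.46% of the H2A.Z regions with no deposited H2A.Zac peak and 1.16% of those with H2A.Zac. An input region overlapped 7 H2A.Z regions, all of them with no deposited H2A.Zac peak. H2A.Zac regions had an H2A.Z region most often on chromosome 19, at 55.5%, and least often on chromosome X, at 23.6%. In the overexpression libraries chromosome X was again the lowest, at 22.2%, but chromosome 20 the highest, at 49.8%.

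The 6 strongest H2A.Z regions with H2A.Zac were broad and carried many reads in both libraries. The first lay in band 2q13 at chr2:114340719-114342170 (hg19, 1452 bp), with an H2A.Z fold of 11.1 from 63 reads and an H2A.Zac fold of 30.1 from 207 reads at a summit 46 bp away. In Xq23, at chrX:115003337-115005383, H2A.Z had a fold of 6.82 from 77 reads and H2A.Zac a fold of 18.6 from 299 reads. The other 4 were in 11q12.1, 11q12.3 and, for a pair of them, 11q13.2, with H2A.Z folds of 6.77 to 9.63 from 53 to 61 reads. The strongest class of H2A.Z regions had a median fold of 5.63 and a median of 15 reads. Reads at these 4 were thus raised more than folds, and the part of the local background in their rank was not tested. All 6 carried H3K27ac, with folds from 3.16 in 11q12.1 to 17.7 in Xq23.

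The 6 strongest H2A.Z regions with no deposited H2A.Zac peak were narrower and lower in fold. Of the 6, 5 lay in bands at or next to a centromere, 5q11.1, 7q11.21 and 7p11.2, and 1 in 5p15.1. The first, at chr5:49410142-49410363 (hg19, 222 bp), had 168 reads but a fold of 2.44, and the next, at chr7:61970236-61970459, had 183 reads and a fold of 2.23. Folds at all 6 ran from 2.17 to 4.10. Of the 6, 4 had no deposited overexpression H2A.Z peak, and most regions of the whole class lacked one too, as given above. The region at chr5:49437230-49437448 in 5q11.1 also met an input region, with a fold of 2.07 at a summit 26 bp away. Both regions in 7p11.2 met an overexpression H2A.Zac peak within the q limit, with folds of 1.52 and 1.70. At chr7:56441126-56441508 in 7p11.2, FLAG had a fold of 9.39 from 357 reads and H3K27ac 1.99 from 127 reads.

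H2A.Zac regions with no deposited H2A.Z peak were led by places with strong H3K27ac. The first lay in 11p15.1 at chr11:18342800-18344640 (hg19, 1841 bp), with an H2A.Zac fold of 20.7 from 63 reads and an H3K27ac fold of 18.7 from 55 reads at a summit 11 bp away. The other 5 lay in 12q15, 7q22.1, 2p21, 18p11.23 and 21q22.11, with H2A.Zac folds of 12.8 to 17.4 and H3K27ac folds of 12.3 to 26.4. FLAG and H3K4me1 had no deposited peak at any of them. An overexpression H2A.Z peak of any q was deposited at 4 of the 6, with folds of 2.21 to 4.91. Only that in 11p15.1 was within the q limit, and that in 12q15 had its summit 1080 bp away. An overexpression H2A.Zac peak was deposited at all 6.

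Shared places with neither H3K27ac nor H3K4me1 deposited numbered 3595 H2A.Z regions. The strongest, in 1q42.13 at chr1:228768942-228769394 (hg19), had 53 H2A.Z reads at a fold of 4.72 and 70 H2A.Zac reads at a fold of 5.31, with summits 617 bp apart. The next 5, in 19q13.12, 6q21, 19p13.11, 3q13.12 and 17p13.1, had H2A.Z folds of 6.99 to 9.28 from 20 to 27 reads. Their H2A.Zac folds were 12.2 to 18.8. The region in 1q42.13 thus had the most H2A.Z reads of the 6 but the lowest folds of both marks. The part of the local background in its rank was not tested. It also met a FLAG peak with a fold of 16.7, whose summit was 5309 bp away. Each of the 6 had both marks again in the overexpression libraries, though in 1q42.13 the H2A.Zac fold was only 1.93, with a −log10 q of 1.52. No gene annotation of hg19 was used here, so genes at these places are not named.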

How the data were processed

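Peak lists of 9 of the 12 libraries were used, 6 of the control and the H2A.Z, H2A.Zac and H3K27ac lists of the overexpression group, 1 library per antibody and group. Peaks were called with MACS2 for each library, and FastQC, Trimmomatic and BWA came before it, per the submitters' processing notes, without versions. What sample served as control in calling, and at which thresholds, is not given in the sources used here. Each deposited fold is a ratio, the summit pileup over the local background, each with the same constant added. The p and q the authors deposited are −log10 values at the summit. The lists end at a p of 0.05, so a q of 0.05 or less was required here. The second deposited list held the same summits in 9 of 9 libraries. The notes name hg19 and hg38. Peaks fitted within hg19 on 23 of 23 chromosomes and passed the end of hg38 on 14, so coordinates are hg19, 1-based.

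Regions were called shared from an overlap of 1 bp. Whole reads at the summit were recovered from the folds and p values within 0.002 on the −log10 scale, for 99.994% to 100.000% of the peaks of the libraries used other than input in the control, and depth was taken over 2.7 Gb. Shares have Wilson 95% intervals and medians binomial order-statistic ones. Classes are 5 equal parts of a list. The code was tested on simulated data. Named regions are the 6 strongest by −log10 q of each of 4 classes. The comparison, the lists and the classes were chosen with earlier results of these data known. Bands came from circlize 0.4.16 and chromosome lengths from GenomeInfoDb 1.38.1 (R 4.3.3). Python 3.11.15 with pandas 2.3.3, numpy 2.4.6, scipy 1.17.1 and matplotlib 3.10.9 did the rest. The only gene annotation at hand was of another build, so gene lists and sequences were not used here.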

Additional observations from a re-analysis of the deposited data

How the results depend on the processing

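With 1 library per antibody, no library could be left out and no p-value given, and the depth of about 17.9 to 21.7 M reads left H2A.Z summits at a median of 10.0 reads, so that a mark not called is not shown to be absent. No paired analysis was possible because each group has 1 library per antibody and no test was run. The values below follow the order share of H2A.Z regions with H2A.Zac, share of H2A.Zac regions with H2A.Z, median H2A.Z width with and without H2A.Zac, median summit offset, share with H3K27ac among H2A.Z regions with and without H2A.Zac, and median fold ratio, which were 69.9%, 41.9%, 787 bp, 331 bp, 146 bp, 58.5%, 1.84% and 1.96. With all deposited peaks they were 23.9%, 45.5%, 487 bp, 263 bp, 152 bp, 53.9%, 2.50% and 1.63. With a q of 1e-05 or less they were 95.4%, 13.8%, 1211 bp, 771 bp, 129 bp, 53.6% and 2.44%, with a ratio of 1.97. With every list cut to 20108 regions they were 65.7%, 60.4%, 885 bp, 415 bp, 147 bp, 60.4%, 5.92% and 2.18. With summits at most 250 bp apart they were 43.6%, 28.4%, 759 bp, 484 bp, 77.0 bp (bounded by the setting), 35.7%, 11% and 1.96. An overlap of at least 50% of the shorter region moved 3 of the 8 values, to 69.0%, 41.4% and, for H3K27ac with H2A.Zac, 56.6%. Leaving out chromosomes 11 and 14 moved the first share to 69.2%, and leaving out centromeric and variable bands, chosen after the data were seen, moved it to 70.6%; the other 7 values stayed within their intervals in both. Acetylated H2A.Z regions were the wider ones and carried H3K27ac more often in all 7 settings. The number of H2A.Zac strength classes with less H3K27ac where H2A.Z was present stayed at 5 in 4 added settings, those named beside it. Why values moved was not tested.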
